A study of Homo sapiens with 6 samples.

Results

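The genes described here are those of major histocompatibility complex (MHC) class I and its peptide loading: the heavy chain genes HLA-B, HLA-C, HLA-E and HLA-F, the light chain gene B2M, the transactivator gene NLRC5, and the loading genes TAP1, TAP2 and TAPBP. They were found by matching their symbols to the Ensembl identifiers of the count table, which gave all 9 listed genes among 58721. RNA was sequenced from A375, an established human melanoma line, in 6 libraries. The 3 control libraries carried a guide RNA against mCherry, a fluorescent protein gene foreign to these cells, and the labels give their genotype as wild type. The 3 knockout libraries carried a guide RNA against SOX10, which encodes a transcription factor found in neural crest cells and melanocytes. All cells were cultured in the same medium, no interferon treatment is mentioned in the labels, and whether the knockout cells are a clone or a pool is not stated there.

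MHC class I molecules show peptides from inside the cell to cytotoxic T cells and natural killer cells. Each consists of a heavy chain, encoded by an HLA gene, and beta-2 microglobulin, the product of B2M. Peptides are cut by the proteasome, pumped into the endoplasmic reticulum by the transporter TAP1-TAP2, loaded with the help of tapasin (TAPBP) and chaperones, and trimmed there by aminopeptidases. NLRC5 is a protein that activates class I promoters without binding DNA itself, through factors of the RFX, NF-Y and CREB families. Interferon, acting in part through IRF1, is the classical inducer of this pathway, and melanomas are known for losing parts of it.

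The promoters of HLA-B, HLA-C and B2M are shown here because these 3 genes behaved differently in the libraries, and because the elements through which class I genes are known to be driven lie in this stretch. Each is the reference sequence from 250 to 51 bases before the gene's RefSeq start (RefSeq, GRCh38.p14), written 5′ to 3′ on the strand of the gene. HLA-B is on the minus strand at chr6:31357230-31357429, HLA-C on the minus strand at chr6:31272143-31272342 and B2M on the plus strand at chr15:44711267-44711466. Capitals mark every match to one of the 6 motifs searched.
HLA-B: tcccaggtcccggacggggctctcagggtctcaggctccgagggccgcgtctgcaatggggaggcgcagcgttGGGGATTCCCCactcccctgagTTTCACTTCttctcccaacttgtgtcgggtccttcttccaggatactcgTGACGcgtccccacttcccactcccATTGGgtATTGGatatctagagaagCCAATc
HLA-C: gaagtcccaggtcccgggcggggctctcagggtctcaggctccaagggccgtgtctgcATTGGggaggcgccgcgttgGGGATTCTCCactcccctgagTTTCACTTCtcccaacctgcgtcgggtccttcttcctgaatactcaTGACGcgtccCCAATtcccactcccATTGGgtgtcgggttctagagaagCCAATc
B2M: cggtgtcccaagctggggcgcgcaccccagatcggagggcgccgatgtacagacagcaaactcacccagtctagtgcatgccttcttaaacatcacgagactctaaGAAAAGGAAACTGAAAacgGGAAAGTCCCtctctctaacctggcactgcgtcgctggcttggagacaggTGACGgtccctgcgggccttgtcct

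Both strands were searched for an interferon-response-like element in a short (GAANNGAAA) and a long form (GAAA, 2 free bases and GAAA again, added after the sequences had been seen), the CRE core TGACG, the CCAAT box (CCAAT), the kappaB consensus motif and the SOX core ACAAAG. Adjoining or overlapping matches run together in the capitals, as the palindromic kappaB matches of HLA-B do. Among 35116 promoter windows of the same length, 5.26% held the short form of the interferon-response-like element, 2.39% the long form, 16.0% the CRE core, 27.4% the CCAAT box, 4.26% the kappaB consensus and 11.3% the SOX core. HLA-B and HLA-C each held the short form, the CRE core, the CCAAT box and the kappaB consensus, and their windows were identical at 181 of 204 aligned positions (88.7%). B2M held 2 overlapping matches to the long form, the CRE core and the kappaB consensus. HLA-F held the long form and, at 2 places, the CCAAT box, and its window was identical to that of HLA-B at 161 of 204 aligned positions. TAP2 held the short form, 1 of the 2 windows of TAP1 held 2 overlapping matches to the long form, the CCAAT box and the kappaB consensus, and TAPBP held none of the 6 motifs. None of the 8 windows of members held the SOX core. HLA-E and NLRC5 had no entry. A match is a description of letters only.

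As a check of the labels, SOX10 was examined first. It stood at 241, 237 and 223 CPM (counts scaled to library size) in the control libraries and at 47.2, 47.8 and 41.5 CPM in the knockout libraries, a 5.14-fold lower mean (exact two-sided permutation test over 20 assignments, p = 0.1, the smallest that 3 against 3 libraries allow). Total counts were between 70075002 and 78148565 per library, so that 3 counts, taken as the floor, were at most 0.0428 CPM. The labels do not say that replicates were separate cultures, so p-values speak only to the spread among these 6 libraries, which could be technical. Of 9 tested markers of the melanoma lineage, SOX10 included, 4 fell and 2 rose (all genes tested: 14% lower, 14% higher). S100B, a neural crest and melanoma marker, fell from 32.9 ± 4.34 to 1.28 ± 0.134 CPM (edgeR adjusted p = 1.17e-07), and MITF, the regulator of the pigment cell program, rose from 57.5 ± 2.15 to 138 ± 2.29 CPM (adjusted p = 9.86e-07). DCT, a pigment enzyme gene, and S100A1 fell as well (24.6-fold and 4.12-fold), and TYRP1 rose from 0.0731 to 0.230 CPM, a call that was lost without control replicate 1, without control replicate 3 and without knockout replicate 1. VIM (1340 ± 199 against 1100.2 ± 75.6 CPM, adjusted p = 0.0921), PMEL and MLANA did not pass, the group means of the pigment cell genes PMEL and MLANA were below 1 CPM, and TYR had at most 1 count in any library. The 10 markers summed to 1440 to 1837 CPM in control and 1200.5 to 1359 CPM in knockout libraries. Most of these sums was VIM alone, at 1118 to 1501 CPM in control and 1020 to 1170 CPM in knockout libraries.

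The 11 leukocyte markers together summed to 12.0 to 15.4 CPM in control and 4.04 to 5.53 CPM in knockout libraries. Of these, LYZ fell from 12.1 ± 1.80 to 1.64 ± 0.360 CPM (edgeR adjusted p = 4.38e-06), whereas ITGAX (2.80-fold, adjusted p = 0.000456) and CSF1R (4.29-fold, adjusted p = 0.00462) rose. PTPRC, which all leukocytes share, was at 0.0634 ± 0.0634 against 0.0259 ± 0.0335 CPM, and CD2 and TYROBP had no count in any library. The 6 endothelial markers summed to 1.40 to 1.62 and 3.43 to 4.26 CPM, in the same order, with CDH5 (4.55-fold) and PECAM1 (3.88-fold) higher and ERG without a count. The 7 fibroblast markers summed to 10.6 to 14.3 and 20.3 to 22.6 CPM. POSTN (16.6-fold) and COL3A1 (from 0.0229 CPM, under the floor, to 0.326 CPM) were among the 5 that rose (all genes tested: 14% higher). That number was 3 without control replicate 1 or knockout replicate 1. PDGFRA fell (1.64-fold, edgeR adjusted p = 0.0329), a call that was lost without control replicate 1 or 2 and without knockout replicate 2 or 3. The part of these sums in the results below was not tested.

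The heavy chain genes fell in the knockout libraries, NLRC5 rose, and the light chain and loading genes did not pass the test. Of the 9 members, all of which passed the filter on low counts, 4 were lower (HLA-B, HLA-C, HLA-E and HLA-F) and 1 was higher (NLRC5) by the quasi-likelihood test of edgeR over 19263 genes, at a threshold of 0.05 on the adjusted p. Across all genes tested 28% were called, 14% lower and 14% higher. The median log2 fold change of the members was 0.00, that of TAP1 (all genes: -0.02). The groups did not overlap in 5 of the 9 members, the same genes that were called, against 41.6% of all tested genes. Without control replicate 3, B2M was called as well, which made 2 members higher. With the replicate number added to the fit as a block, B2M, TAP2 and TAPBP were called as well, which made 4 members higher. The labels do not say that these numbers mark pairs. In bulk RNA, fewer cells that express a gene and less of its RNA per cell cannot be told apart.

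**Figure D1:**
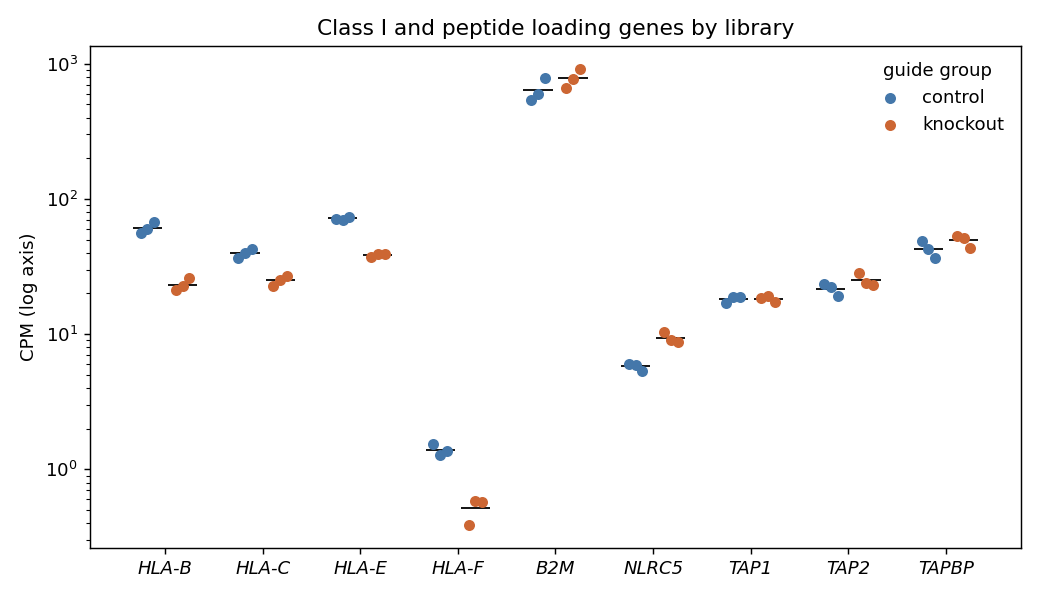
CPM (log axis) of each of the 9 genes in the 3 control (blue) and 3 knockout (orange) libraries; points are libraries and lines are group means. For the 4 HLA genes every knockout library lies below every control library, for NLRC5 every one lies above, and for B2M, TAP1, TAP2 and TAPBP the groups overlap.

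HLA-B encodes 1 of the classical, highly variable heavy chains that present peptides to cytotoxic T cells (ENSG00000234745; GRCh38 chromosome 6, 31269491 to 31357188, minus strand). It was measured at 56.2, 59.7 and 67.5 CPM in the control libraries and at 21.2, 22.6 and 26.1 CPM in the knockout libraries. The groups did not overlap, and the gap between them was wider than the range within either group. From a mean of 61.1 ± 5.81 CPM (SD, n = 3) it fell 2.62-fold, to 23.3 ± 2.52 CPM (log2 fold change -1.39 with a standard error, SE, of 0.10; edgeR adjusted p = 1.48e-05).

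HLA-C, another classical heavy chain gene and the main ligand of killer cell immunoglobulin-like receptors, fell less (ENSG00000204525; chromosome 6, 31268749 to 31272130, minus strand). Its values were 36.5, 39.8 and 42.3 CPM in control and 22.9, 25.04 and 27.1 CPM in knockout libraries. The groups did not overlap, and the mean was 1.58-fold lower in knockout libraries (log2 fold change -0.66 ± 0.09 SE, adjusted p = 0.000535 in edgeR). The ratio of HLA-B to HLA-C within a library was 1.54, 1.50 and 1.60 in control and 0.926, 0.904 and 0.962 in knockout libraries, so that HLA-B was the higher of the pair in every control library and the lower in every knockout library, in CPM and per kilobase of exons alike. The log2 ratio moved by -0.73 (exact two-sided permutation test over 20 assignments, p = 0.1, the smallest possible with 3 against 3).

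HLA-E, a nonclassical heavy chain that displays leader peptides of other class I chains to natural killer cells, showed the tightest replicates of the heavy chain genes (ENSG00000204592; chromosome 6, 30489467 to 30494205, plus strand). It stood at 71.4, 70.3 and 73.5 CPM in control libraries and at 37.5, 39.1 and 39.01 CPM in knockout libraries. The mean of 71.7 ± 1.64 CPM fell 1.86-fold, to 38.5 ± 0.923 CPM (log2 fold change -0.90, SE 0.06, adjusted p = 6.97e-06 in edgeR).

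HLA-F, a nonclassical gene whose product can reach the surface without peptide, was scarce (ENSG00000204642; chromosome 6, 29722775 to 29738528, plus strand). Raw counts were 111, 95 and 99 in control and 28, 46 and 45 in knockout libraries, or 1.54, 1.28 and 1.37 CPM against 0.389, 0.587 and 0.574 CPM. All knockout libraries lay below all control libraries, and the fold change of 2.71 had the widest interval of the members (log2 fold change -1.43, 95% interval -1.90 to -0.96, edgeR adjusted p = 0.000966). Its antisense neighbour HLA-F-AS1, which shares no exon bases with it in the annotation, was measured at 0.580 ± 0.164 against 0.613 ± 0.0561 CPM and was not called (edgeR adjusted p = 0.863). HLA-F does share 539 exon bases (27.2%) with ENSG00000225864 and 257 (12.9%) with RPL23AP1. Both lie on the opposite strand and had no count in any library, and whether counting used strand is not stated in the labels.

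Together the 4 heavy chain genes summed to 166, 171 and 185 CPM in control libraries and to 81.9, 87.4 and 92.8 CPM in knockout libraries. Summed as CPM per kilobase of exons, which allows for their lengths, HLA-B made up 41.7% ± 1.26 in control and 32.0% ± 1.26 in knockout libraries, HLA-C 27.6% ± 0.603 and 35.1% ± 0.514, and HLA-E 29.9% ± 1.46 and 32.4% ± 1.69. HLA-F stayed below 1% in every library. HLA genes are highly variable and resemble each other, and the alleles of A375 may differ from the reference. Of the 50-base words in the annotated transcripts, 2.72% of those of HLA-B, 5.38% of those of HLA-C, 4.34% of those of HLA-E and 0.977% of those of HLA-F also occurred in transcripts of another gene. HLA-B and HLA-C overlap in the annotation and share 33 exon bases. HLA-B also shares 372 exon bases (23.5%) with ENSG00000271581, which lies on the opposite strand and had no count in any library. How much of each HLA level was lost to reads that fit another gene was not tested.

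NLRC5, the transactivator of class I genes, went the opposite way (ENSG00000140853; chromosome 16, 56989485 to 57083531, plus strand). It was counted at 6.05, 5.95 and 5.35 CPM in control and at 10.4, 9.13 and 8.75 CPM in knockout libraries, with all knockout libraries above all control libraries. It rose 1.63-fold, from 5.78 ± 0.375 CPM to 9.44 ± 0.884 CPM (log2 fold change 0.71 with an SE of 0.10, adjusted p = 0.000786 in edgeR). CIITA, the related transactivator of class II genes, stood at 65.3, 59.3 and 49.04 CPM in control and at 8.38, 6.68 and 5.85 CPM in knockout libraries and fell 8.30-fold (log2 fold change -3.06, edgeR adjusted p = 1.77e-06).

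**Figure D2:**
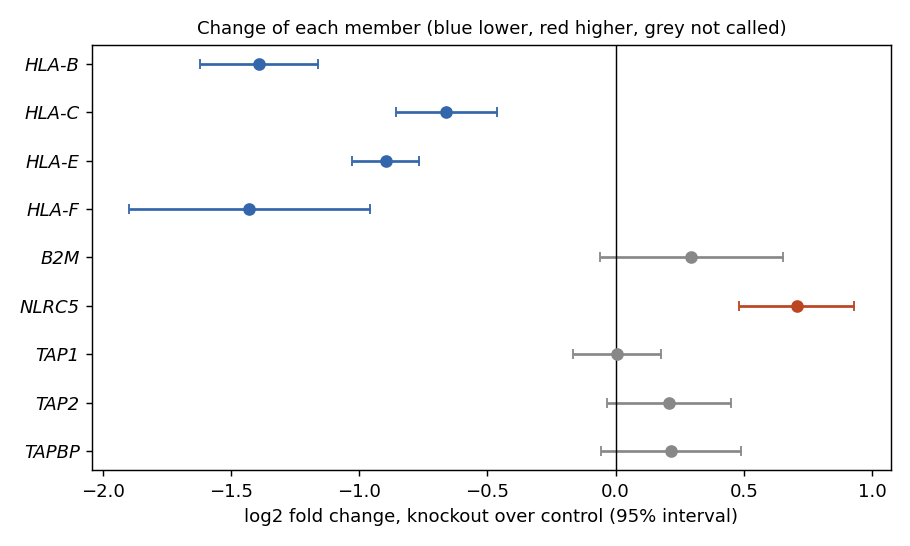
Log2 fold change of each gene, knockout over control, with its 95% interval from the edgeR fit (n = 3 libraries per group). The intervals of HLA-B, HLA-C, HLA-E and HLA-F lie below 0 and that of NLRC5 above it, while those of B2M, TAP1, TAP2 and TAPBP include 0.

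B2M encodes the light chain that every class I heavy chain needs (ENSG00000166710; chromosome 15, 44711487 to 44718877, plus strand). Its values spread widely within both groups, at 538, 597 and 780 CPM in control and 664, 766 and 919 CPM in knockout libraries. The ranges overlapped, with control replicate 3 above knockout replicates 1 and 2. In the main fit, which had no replicate block, the difference missed the threshold (log2 fold change 0.30, 95% interval -0.06 to 0.65, edgeR adjusted p = 0.21). Without control replicate 3 B2M passed (log2 fold change 0.46, adjusted p = 0.0206), and over the 6 fits that left out a library the log2 fold change was between 0.17 and 0.46.

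The loading genes were measured at intermediate levels, and none passed the main test, which had no replicate block. TAP1, a subunit of the peptide transporter (ENSG00000168394; chromosome 6, 32845209 to 32853978, minus strand), was counted at 16.95, 19.00 and 18.8 CPM in control and at 18.6, 19.03 and 17.3 CPM in knockout libraries. Its log2 fold change of 0.00 had a 95% interval of -0.17 to 0.18 (edgeR adjusted p = 0.972). TAP2, the other subunit (ENSG00000204267; chromosome 6, 32821833 to 32838780, minus strand), stood at 23.6, 22.4 and 19.2 CPM in control and at 28.3, 24.06 and 23.02 CPM in knockout libraries, with overlapping ranges (log2 fold change 0.21, 95% interval -0.03 to 0.45, edgeR adjusted p = 0.191; 0.12 to 0.28 on leaving out a library).

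TAPBP, the gene of tapasin, which holds empty class I molecules at the transporter (ENSG00000231925; chromosome 6, 33299694 to 33314387, minus strand), stood at 49.1, 42.4 and 36.4 CPM in control and at 53.7, 51.2 and 43.7 CPM in knockout libraries. The groups overlapped and the difference did not pass (log2 fold change 0.22, 95% interval -0.06 to 0.49, edgeR adjusted p = 0.23). On leaving out a library its log2 fold change was between 0.11 and 0.34. All 3 loading genes lie in or beside the class II region of the complex. TAP1 shares 456 exon bases with PSMB8-AS1 on the opposite strand, and whether counting used strand is not stated in the labels. PSMB8-AS1 was low, at 0.458 ± 0.147 against 0.820 ± 0.218 CPM (edgeR adjusted p = 0.0769). TAP2 shares 33.4% of its exon bases with a read-through gene on the same strand that had at most 1 count in any library, so TAP2 may be undercounted if reads in the shared part were set aside as ambiguous.

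Levels of different genes can be compared only per length, here as CPM per kilobase of the gene's exons. In control libraries B2M stood at 268 ± 53.1, HLA-B at 38.5 ± 3.67, HLA-E at 27.6 ± 0.629, HLA-C at 25.4 ± 1.88, TAPBP at 10.2 ± 1.52, TAP1 at 6.16 ± 0.381, TAP2 at 3.52 ± 0.367, NLRC5 at 0.848 ± 0.0550 and HLA-F at 0.705 ± 0.0670 CPM per kilobase. The ranges of HLA-E and HLA-C overlapped, and those of the other neighbours in this order did not. In knockout libraries B2M stood at 329 ± 53.9, HLA-C at 16.1 ± 1.36, HLA-E at 14.8 ± 0.355, HLA-B at 14.7 ± 1.59 and TAPBP at 11.8 ± 1.24 CPM per kilobase. There the ranges of HLA-B, HLA-C and HLA-E overlapped, so their order is not resolved, and all 3 lay above TAPBP in every library. TAP1 (6.19 ± 0.302), TAP2 (4.07 ± 0.457), NLRC5 (1.38 ± 0.130) and HLA-F (0.260 ± 0.0558) followed without overlap. Per kilobase of the longest transcript instead, HLA-F (0.856) and NLRC5 (0.848) changed places in control libraries. By that length HLA-B (15.1) and HLA-E (14.8) also changed places in knockout libraries. TAPBP (14.3) then lay above HLA-B (13.7) in knockout replicate 1. The level of B2M per kilobase was 2.59, 2.76 and 3.32 times that of the heavy chain genes summed in control libraries and 6.54, 7.05 and 7.85 times in knockout libraries; this ratio is a description and was not tested.

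**Figure D3:**
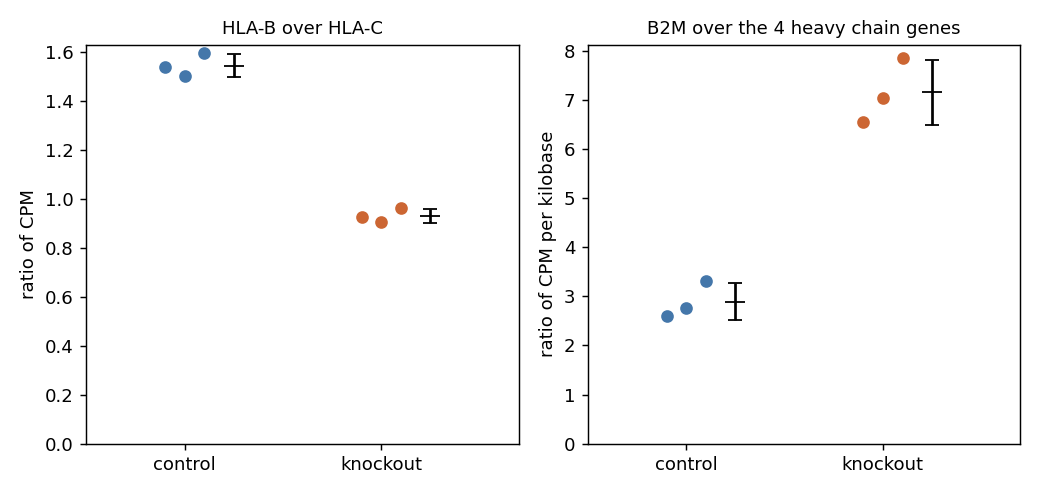
Ratio of HLA-B to HLA-C in CPM (left) and of B2M to the sum of the 4 heavy chain genes in CPM per kilobase (right) in each library, with group means and SD (n = 3) in black. The first ratio is 1.50 to 1.60 in control and 0.904 to 0.962 in knockout libraries, and the second rises from at most 3.32 to at least 6.54.

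Genes that make the peptides more often rose than fell. Of 12 tested genes of the immunoproteasome, the proteasome activator and peptide trimming, 5 rose and 1 fell (all genes: 14% higher, 14% lower). Their median log2 fold change was 0.25 (all genes: -0.02). The trimming aminopeptidase gene ERAP2 rose from 4.96 ± 0.440 to 7.94 ± 0.495 CPM (edgeR adjusted p = 0.000987) and LNPEP, an endosomal aminopeptidase gene, from 90.8 ± 6.98 to 124.6 ± 5.73 CPM (adjusted p = 0.00181). PSMB8, a catalytic subunit of the immunoproteasome, stood at 23.3, 26.5 and 30.3 CPM in control and at 33.96, 34.9 and 38.9 CPM in knockout libraries, and rose (log2 fold change 0.43, adjusted p = 0.0149). PSMB9, which lies beside TAP1 and is read in the opposite direction, stood at 7.26 ± 1.20 against 9.51 ± 1.62 CPM and did not pass (adjusted p = 0.0937), nor did PSMB10 (2.39 ± 0.408 against 3.03 ± 0.954 CPM, adjusted p = 0.335). The activator gene PSME3 fell slightly, from 455 ± 3.25 to 398 ± 6.01 CPM (adjusted p = 0.0267). The number that rose was 3 without control replicate 2, and the fall of PSME3 was lost on leaving out control replicate 1 or 2 or any knockout replicate, with scaling by total counts and without a filter on low counts. None of the 8 constitutive proteasome subunits was called in the main edgeR fit at an adjusted p of 0.05 (0 at an unadjusted p under 0.05, and 0 in DESeq2). PSMB4, named for the highest mean CPM over all libraries, which does not allow for length, stood at 460 ± 51.1 against 401 ± 35.2 CPM (adjusted p = 0.182). With the replicate number as a block, PSMB4 was called lower (log2 fold change -0.19, edgeR adjusted p = 3.19e-06).

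Among 8 tested chaperones and editors of class I loading, 1 fell and 1 rose (all genes: 14% lower, 14% higher), and the median was -0.10. HSPA5, the chaperone BiP, fell from 1118 ± 48.9 to 814 ± 17.4 CPM (log2 fold change -0.46, edgeR adjusted p = 0.000533). TAPBPL, the gene of the peptide editor TAPBPR, rose from 2.04 ± 0.0688 to 2.77 ± 0.171 CPM (adjusted p = 0.0189), a call that was lost without control replicate 2, without knockout replicate 1 and without knockout replicate 3. With the replicate number as a block, 5 of the 8 fell and 1 rose (all 19263 genes: 5176 lower, 4637 higher).

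Of 12 genes for factors that bind class I promoters, 5 were lower and 0 higher in the main edgeR fit (0 higher at an unadjusted p under 0.05 and 0 in DESeq2), with a median of -0.18. Over all genes 14% were lower and 14% higher. RFX5, the DNA-binding subunit of the RFX complex on which NLRC5 acts, fell from 109 ± 7.21 to 78.5 ± 4.51 CPM (log2 fold change -0.47, edgeR adjusted p = 0.00154). Its partner genes RFXAP (9.69 ± 0.387 to 7.70 ± 0.552 CPM, adjusted p = 0.0182) and RFXANK (28.4 ± 3.22 to 23.2 ± 0.756 CPM, adjusted p = 0.0379) fell as well. NFKB1, which encodes an NF-kappaB subunit, stood at 100.3, 97.2 and 89.5 CPM in control and at 60.9, 57.6 and 53.9 CPM in knockout libraries and fell 1.66-fold (adjusted p = 9.91e-05). USF2, an E box factor, was the fifth (73.5 ± 1.05 to 61.6 ± 2.12 CPM, adjusted p = 0.0103). The number that fell was 3 without control replicate 2, without knockout replicate 2 and without knockout replicate 3. With the replicate number as a block, 9 fell and 1 rose (all 19263 genes: 5176 lower, 4637 higher). The gene that rose there was ATF1 (edgeR adjusted p = 0.00691).

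In interferon signalling, 3 of 13 tested genes fell and 1 rose (all genes: 14% lower, 14% higher). The median was -0.04, and was above 0 under some alternatives. The gene that rose was IRF1, a direct activator of class I genes, which went from 6.17 ± 0.248 to 8.35 ± 0.414 CPM (log2 fold change 0.43, edgeR adjusted p = 0.00426). The number that rose was 2 without control replicate 3. The receptor gene IFNGR2 fell from 45.8 ± 2.53 to 35.04 ± 0.608 CPM (adjusted p = 0.00225) and IFNAR1 from 99.4 ± 1.26 to 86.3 ± 1.73 CPM (adjusted p = 0.0225). Only 1 of these genes fell without control replicate 2 or without knockout replicate 2. Of 14 tested interferon-induced genes, 6 rose and 2 fell (all genes: 14% higher, 14% lower). Their median was 0.32, and was 0.53 without control replicate 3 and 0.21 without knockout replicate 3. PSMB9 is also in this list. IFI44L rose from 0.679 ± 0.169 to 3.88 ± 0.509 CPM (adjusted p = 2.03e-05) and BST2, the gene of tetherin, from 0.485 ± 0.0961 to 1.77 ± 0.158 CPM (adjusted p = 0.000139). The guanylate-binding protein gene GBP2 fell from 11.5 ± 0.924 to 3.21 ± 0.373 CPM (adjusted p = 5.09e-06) and OAS1, an antiviral enzyme gene, from 9.32 ± 0.654 to 5.44 ± 0.0902 CPM (adjusted p = 0.000186).

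Of 11 tested genes that silence, mask or remove class I, 3 fell and 1 rose (all genes: 14% lower, 14% higher), with a median of -0.04. EZH2, the histone methyltransferase of PRC2, a complex that can silence class I genes, fell from 107.5 ± 3.82 to 76.9 ± 3.66 CPM (edgeR adjusted p = 0.000517). The ubiquitin ligase gene WWP2 fell from 71.1 ± 6.54 to 50.8 ± 5.76 CPM (adjusted p = 0.00714). MARCHF4, the gene of a membrane ubiquitin ligase able to remove class I from the surface, rose from 4.36 ± 0.603 to 10.98 ± 0.764 CPM, 2.52-fold (adjusted p = 4.62e-05).

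Among 10 tested other class I-like genes, 7 rose and 1 fell, and the median was 0.43 (all genes: 14% higher, 14% lower). MR1, which presents vitamin B metabolites to mucosal-associated invariant T cells, stood at 4.75, 5.04 and 5.87 CPM in control and at 13.3, 13.1 and 13.7 CPM in knockout libraries, and rose 2.56-fold (log2 fold change 1.36, edgeR adjusted p = 1.16e-05). PROCR, the endothelial protein C receptor with a class I fold, rose from 27.6 ± 3.06 to 51.5 ± 4.18 CPM (adjusted p = 0.000184). CD1D, which presents lipids, fell from 6.44 ± 0.854 to 4.14 ± 0.341 CPM (adjusted p = 0.00442). HLA-G, the nonclassical gene of the placenta, stood at 0.390 ± 0.0402 against 0.295 ± 0.112 CPM and did not pass (adjusted p = 0.419). The number that rose was 4 without control replicate 1, without control replicate 2 and without knockout replicate 2. Among class II genes, 11 of 12 fell and the other, HLA-DOB, did not pass (0.307 ± 0.0344 against 0.117 ± 0.0950 CPM, adjusted p = 0.0758), with a median of -2.56; the invariant chain gene CD74 fell from 758 ± 17.6 to 129 ± 7.73 CPM (adjusted p = 8.15e-08) and HLA-DPA1 from 229 ± 3.44 to 52.6 ± 0.681 CPM (adjusted p = 7.51e-08).

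**Figure D4:**
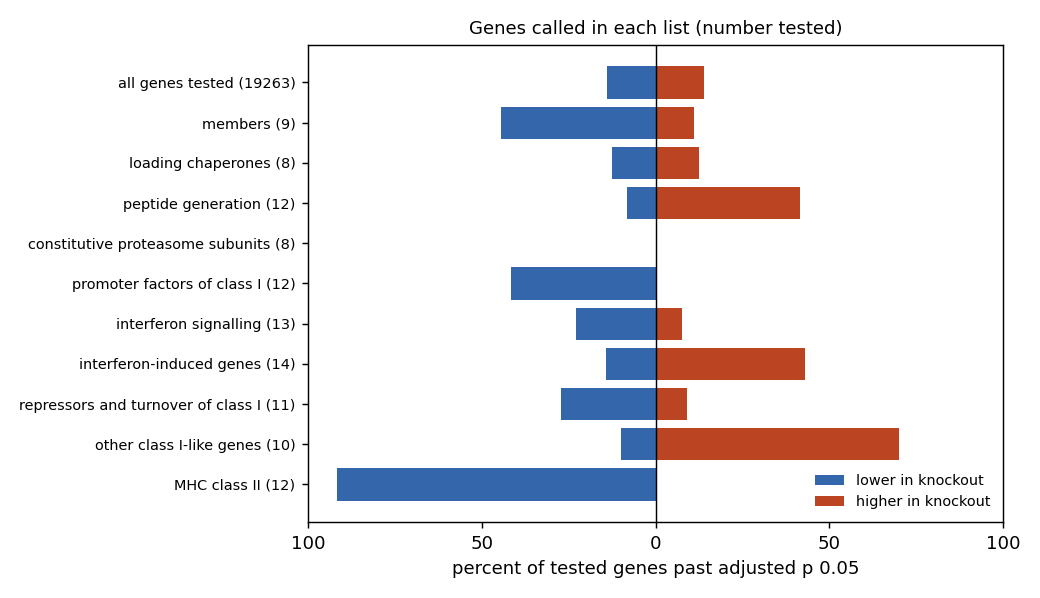
Percent of the tested genes of each list (number tested in brackets) called lower (blue, leftward) or higher (red, rightward) in knockout libraries at an adjusted p of 0.05 in edgeR, with all genes tested at the top. The 9 members have 4 lower and 1 higher, the other class I-like genes 1 lower and 7 higher, and the class II genes 11 lower and none higher, against 14% in each direction over all genes.

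By position, 7 of the 9 members lie within the complex on chromosome 6, from the start of HLA-F at 29722775 to the end of TAPBP at 33314387. Of the 130 other tested genes in this interval, 27 were lower and 11 higher in knockout libraries (all genes: 14% lower, 14% higher). Their median log2 fold change was -0.13 (all genes: -0.02). The interval was chosen after values had been seen and includes class II genes, a list in which most genes fell. The remaining members, B2M and NLRC5, lie on chromosomes 15 and 16.

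Across the 6 libraries, the profile of HLA-B was most like those of DHRS3, PMP22 and TMEM98 among 10115 protein-coding genes of at least 5 CPM on average, with root mean square differences of 0.04, 0.07 and 0.07 between centred log2 CPM values. DHRS3, a retinal reductase gene, was at 56.03 ± 7.76 CPM in control against 21.2 ± 2.09 CPM in knockout libraries, and PMP22, a myelin protein gene, at 242 ± 18.9 and 88.7 ± 3.37 CPM. The genes nearest to NLRC5 were B4GALT1, ADGRG1 and PTPRK, at differences of 0.03, 0.03 and 0.04, and those nearest to B2M were CAPZA2, TMEM126B and GOLT1B, at 0.01, 0.03 and 0.03. CAPZA2, which encodes an actin capping subunit, was at 238 ± 49.5 CPM in control against 292 ± 48.2 CPM in knockout libraries, a spread like that of B2M. These likenesses describe 6 libraries in 2 groups and carry no test.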

How the data were processed

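Polyadenylated RNA libraries were made with a stranded kit, per the labels' protocols. HISAT2, HTSeq and the build hg38 are named, per the submitters' processing notes; their versions, strand setting and annotation release are not stated there. The values are raw, unnormalized read counts of each gene as the authors deposited them, in a table of 58721 identifiers with a column per library; all identifiers were found in GENCODE release 29 (GRCh38), which gave coordinates and exons. Libraries were grouped by their titles, 3 control and 3 knockout, with 70075002 to 78148565 counts each.

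Tests of the counts used edgeR 4.0.16 under R 4.3.3 (filterByExpr, TMM, two-sided quasi-likelihood test without covariates, Benjamini-Hochberg over 19263 genes, threshold 0.05), a procedure tested on simulated data. CPM use TMM-scaled library sizes, and values after ± are SD over n = 3. Alternatives were DESeq2 1.42.0, limma-voom (limma 3.58.1), other scalings and filters, a replicate block and leaving out each library. HTSeq-type counting may set aside reads that fit several genes.

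The 9 members and the 13 other gene lists were chosen with earlier results of these data known. Genes named are the members, SOX10, the called genes with the 2 smallest p in each direction of a list (or its most abundant gene), CIITA, IRF1 and 3 immunoproteasome genes, genes overlapping a member, and the 3 nearest profiles. RFXAP, RFXANK, USF2, HLA-G, HLA-DOB and marker genes beyond this rule were named after their values were seen. A gene of the interferon signalling list and a leukocyte marker are not reported here. Promoters come from RefSeq (GRCh38.p14) and were aligned with biopython 1.88.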

Additional observations from a re-analysis of the deposited data

How the results depend on the processing

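HLA-B, HLA-C, HLA-E and HLA-F stayed lower and NLRC5 higher, each past the threshold, in all 13 alternative fits; their log2 fold changes lay between -1.48 and -1.31, -0.72 and -0.59, -0.91 and -0.85, -1.52 and -1.26, and 0.64 and 0.76. Leaving out a library gave 4 members lower each time, 1 to 2 members higher, a median of the members between -0.037 and 0.045, a log2 fold change of TAP1 between -0.037 and 0.045 and one of B2M between 0.17 and 0.46. Over all genes it gave 1794 to 2958 lower and 1986 to 2935 higher. With the replicate number as a block, 4 members were higher, as B2M (log2 fold change 0.30, adjusted p = 2.92e-09), TAP2 (0.21, adjusted p = 0.000827) and TAPBP (0.22, adjusted p = 3.30e-05) passed as well, and calls over all genes became 5176 lower and 4637 higher. The labels do not say that numbers mark pairs. Deviations from the group mean correlated, across 14023 genes, at 0.71 for the number 1, 0.05 for the number 2 and 0.76 for the number 3. The correlation was -0.72 between control replicate 1 and knockout replicate 3, and -0.73 between control replicate 3 and knockout replicate 1. Control replicate 2 correlated best with knockout replicate 1 (0.25). Deviations within a group cancel out, so the low value for the number 2 cannot decide whether the numbers mark pairs. The main test did not take them as pairs. In interferon signalling, where 1 gene rose, the number was 2 without control replicate 3, with scaling by total counts and under the filter of 1 CPM in 3 libraries, and 4 with the block. Depth limits HLA-F most, with 28 to 46 counts in knockout libraries.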
